A study of Mus musculus with 34 samples.

Results

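Collagens are the proteins of the extracellular matrix that hold a triple helix of 3 chains, and each chain is the product of its own gene. Fibrillar collagens are cleaved outside the cell and pack into the fibres of connective tissue, collagen IV forms the sheet of basement membranes, and the remaining families coat fibrils, anchor cells or carry a helix through the membrane. In liver, stellate cells and portal fibroblasts are the main source of fibrillar collagen, and a build-up of it is the hallmark of fibrosis. Collagen genes were taken here as those with a symbol made of Col, a number, the letter a and a number, which gave 44 of the 37583 genes in the deposited files. They comprise 11 fibrillar, 6 basement membrane and 27 other collagens.

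The samples were livers of F1 mice (C57Bl6/CBA) aged 45 days, labelled wild type (WT) or Setd8lox/lox-Alb-Cre (knockout, KO). Setd8, also called Kmt5a or PR-Set7, encodes a histone H4 lysine 20 methyltransferase. Its floxed exon is removed by a Cre under the albumin promoter, which is active in hepatocytes, so that stellate cells and endothelial cells keep the gene. Whether bile duct cells keep it is not given by the labels. Messenger RNA was measured in 3 WT and 3 KO libraries of untreated mice. Newly made RNA was measured in 1 WT and 1 KO library by each of 2 methods: in EU, mice received 25 mg per kg of ethynyl uridine 30 min before they were killed and labelled nuclear RNA was captured, and in Br, liver nuclei extended their transcripts with bromouridine for 3 min. Chromatin samples (24) were not analysed here. Labels number the mRNA replicates without saying that each is a separate animal, so p-values speak only of the spread among these libraries, part of which may be technical.

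The sum of scaled values ranged from 18069344 to 25820906 over the mRNA libraries. EU libraries held 10833287 reads in WT and 5583983 in KO, and Br libraries 3156055 and 2317840. In WT replicate 3, 20077 genes were above 0, where the other 5 mRNA libraries had 24497 to 26247, and on principal component 1 it lay far from the rest (121 against -46.2 to -6.11). Setd8 mRNA was not lower in the libraries labelled KO, at 593, 615 and 1076 in WT against 1199, 1040 and 1075 in KO (log2 difference 0.59, SE 0.25, limma adjusted p = 0.244; without WT replicate 3, 0.87 and 0.0198). A whole-gene value shows the removal of 1 exon only in part. Every direction below is therefore that of libraries labelled KO against libraries labelled WT. The tissue label matched its markers: all 10 hepatocyte markers were present, with summed scaled values of 1873193 to 3076255 in WT and 1869849 to 2154641 in KO.

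Among the collagen mRNAs, 2 fibrillar members fell in the libraries labelled KO, and no member rose past the threshold. Col27a1 fell 6.38-fold and Col5a3 4.91-fold. The interstitial chains Col1a1, Col1a2 and Col3a1 and the basement membrane chains Col4a1 and Col4a2 had higher means in KO without passing the test. In bulk liver, fewer cells of a type and less RNA per cell cannot be told apart. Of the 44 genes, 38 were tested, having reached 10 scaled units in at least 3 libraries, and 6 were not (Col2a1, Col9a1, Col9a2, Col10a1, Col11a1 and Col19a1, none above 23 in any library). The test was limma on log2 of the scaled value plus 1, with Benjamini-Hochberg adjustment over 16813 genes and a threshold of 0.05. The 2 falls are 5.26% of the tested members, where 1.36% of all tested genes were called lower, 1.35% higher and 2.71% in either direction. At an unadjusted limma p under 0.05, 9 members were higher and 5 lower, beside 10.2% and 9.78% of all tested genes. Over all genes 227 were called higher and 228 lower, and after TMM rescaling of the values 294 and 177.

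Col27a1 (ENSMUSG00000045672) encodes the fibrillar collagen of type XXVII, known mainly from cartilage. Its scaled values were 3958, 4273 and 2663 in WT against 572, 572 and 527 in KO. Every WT library lay far above every KO library, and the KO libraries were close together, with a mean of 557 ± 26.0 against 3631 ± 853 in WT (SD, n = 3 each). The log2 fold change was -2.67 (SE 0.22, limma adjusted p = 0.00355). It ran from -2.88 to -2.54 with a library left out, and was called under each of the 13 alternatives run. Among the 16813 tested genes it had the 77th lowest log2 fold change.

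Col5a3 (ENSMUSG00000004098) encodes the alpha3 chain of collagen V, a minor fibrillar collagen that regulates fibril assembly. Its values were 3602, 2813 and 1833 in WT against 287, 726 and 749 in KO, so the groups did not overlap and KO replicate 1 was the lowest library. The mean was 2749 ± 886 (SD, n = 3) for WT against 587 ± 260 (SD, n = 3) for KO, and the log2 fold change was -2.30 (SE 0.41, limma adjusted p = 0.0309). The call was lost without WT replicate 1 (limma adjusted p = 0.0704), WT replicate 2 (0.118), KO replicate 1 (0.0614) or KO replicate 2 (0.0960), with log2 fold changes between -2.56 and -1.84 over the 6 libraries left out. Relative to its partner chain, the ratio of Col5a3 to Col5a1 was 19.1, 15.4 and 13.3 in WT and 0.552, 2.57 and 3.34 in KO.

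**Figure D1:**
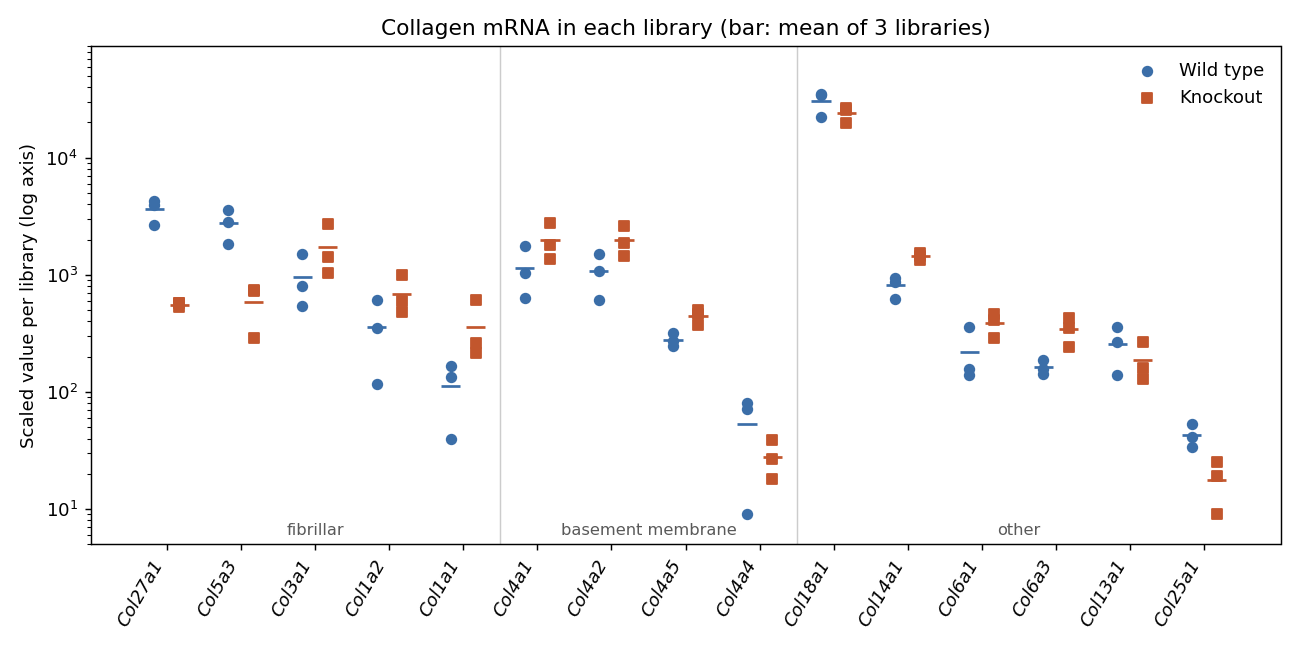
Scaled mRNA value (log axis) of 15 collagen genes in each of the 3 wild-type and 3 knockout libraries, ordered by class, with a bar at the mean of each group. The knockout points of Col27a1 (527 to 572) and Col5a3 (287 to 749) lie below all wild-type points, while those of Col1a1, Col4a5, Col14a1 and Col6a3 lie above them.

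The promoters of 4 members are printed for the contrasts that follow: Col27a1, lower in KO in mRNA and in newly made RNA, Col15a1, lower in newly made RNA, Col5a3, lower in mRNA only, and Col3a1, higher in newly made RNA. Each is the stretch of 250 bases before the gene's annotated start, from RefSeq on GRCm38.p6, which is a later build than the mm9 named for the deposited files. The windows are chr4:63215162-63215411 (plus strand) for Col27a1, chr4:47207762-47208011 (plus strand) for Col15a1, chr9:20815068-20815317 (minus strand) for Col5a3 and chr1:45311288-45311537 (plus strand) for Col3a1. Capitals mark matches on either strand to TATAAA (the TATA box), to CCAAT (the CCAAT box), to GGGCGG (the GC box) or to CACGTG (the E box), and no matches overlap.
Col27a1: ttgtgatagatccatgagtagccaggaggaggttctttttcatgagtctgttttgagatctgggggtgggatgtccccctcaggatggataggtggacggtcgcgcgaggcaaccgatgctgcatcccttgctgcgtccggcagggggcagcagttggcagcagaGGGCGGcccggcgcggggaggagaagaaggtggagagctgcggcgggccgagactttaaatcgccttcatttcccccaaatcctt
Col15a1: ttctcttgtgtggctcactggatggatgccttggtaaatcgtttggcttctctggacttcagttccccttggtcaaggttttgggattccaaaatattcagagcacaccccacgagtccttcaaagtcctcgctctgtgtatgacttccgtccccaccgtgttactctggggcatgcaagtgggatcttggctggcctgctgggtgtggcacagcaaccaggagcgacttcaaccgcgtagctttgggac
Col5a3: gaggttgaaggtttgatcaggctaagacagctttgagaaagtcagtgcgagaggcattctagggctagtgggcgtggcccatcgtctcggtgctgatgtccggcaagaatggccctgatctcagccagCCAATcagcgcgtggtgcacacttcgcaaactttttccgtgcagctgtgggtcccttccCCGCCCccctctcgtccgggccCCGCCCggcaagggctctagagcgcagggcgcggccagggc
Col3a1: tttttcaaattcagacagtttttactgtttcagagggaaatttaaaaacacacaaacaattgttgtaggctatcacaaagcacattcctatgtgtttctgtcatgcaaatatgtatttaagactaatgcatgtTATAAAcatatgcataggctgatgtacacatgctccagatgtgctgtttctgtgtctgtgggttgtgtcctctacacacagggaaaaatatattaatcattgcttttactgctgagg
The Col27a1 window held 1 GC box and the Col5a3 window 2 GC boxes and 1 CCAAT box, all within 122 bases of the start. Col3a1 held 1 TATA box, beginning 117 bases before the start, and no CG dinucleotide. Col15a1 held none of these letters. Of all 32851 windows of this length, 12.4% held the TATA box, 33.8% the CCAAT box, 32.7% the GC box and 6.02% the E box. Among the 38 windows of the 35 collagen genes found in the table, the shares were 13.2%, 34.2%, 57.9% and 0%. These matches describe the letters only.

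The other fibrillar chains were higher or lower without passing the test. Col1a1, the alpha1 chain of collagen I, had values of 166, 133 and 40 in WT against 604, 264 and 217 in KO. The groups did not overlap, yet the spread within each was wide, and the estimate of 1.75 on the log2 scale (SE 0.58) had a limma adjusted p of 0.146. Col1a2, its partner in the collagen I trimer, was at 605, 354 and 118 in WT against 990, 595 and 477 in KO, with groups that overlapped (log2 1.15, SE 0.56). Col3a1, which forms the reticular fibres of liver, was at 1517, 797 and 538 in WT against 2727, 1413 and 1045 in KO, also overlapping (log2 0.88, SE 0.45). In each of the 3 genes WT replicate 3 was the lowest and KO replicate 1 the highest library. Without WT replicate 3 the log2 differences were 1.13, 0.50 and 0.53.

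The ratio of Col1a1 to Col1a2 in scaled values was 0.274, 0.376 and 0.339 in WT and 0.610, 0.444 and 0.455 in KO, so every KO library held more Col1a1 per Col1a2 than every WT library. This ratio compares the pair between libraries and says nothing of the chains' absolute amounts. Among the other chain ratios taken, those of Col5a3 to Col5a1 and Col3a1 to Col5a2 did not overlap between groups. The rest did, such as Col3a1 to Col1a2, Col5a1 to Col5a2 and Col6a1 to Col6a2. Col5a1 (log2 0.92, SE 0.33, KO libraries all above WT) and Col5a2 (0.47, SE 0.46), the common chains of collagen V, did not pass. Col11a2 was lower in KO, with 151, 269 and 96 in WT against 95, 53 and 60, no overlap and an estimate of -1.22 (log2, SE 0.42, limma adjusted p = 0.156). It was called without WT replicate 3 (log2 -1.57, limma adjusted p = 0.0335). Col24a1 differed little (log2 -0.08).

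None of the 6 basement membrane collagens was called. Col4a1 and Col4a2 code for the common chains of collagen IV and lie head to head on mouse chromosome 8, where their annotated transcripts overlap by 22 bases. Col4a1 had values of 1746, 1037 and 628 in WT against 2748, 1794 and 1361 in KO. Col4a2 had 1519, 1073 and 612 in WT against 2611, 1860 and 1461 in KO. The pair moved almost in step: the ratio of Col4a1 to Col4a2 lay between 0.932 and 1.15 in all 6 libraries. Their log2 differences of 0.85 (SE 0.40) and 0.94 (SE 0.35) did not pass (limma adjusted p = 0.280 and 0.191).

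Col4a5, a chain of the specialised collagen IV networks, had 273, 246 and 318 in WT against 497, 370 and 459 in KO, without overlap (log2 0.66, SE 0.21, limma adjusted p = 0.131). Its head-to-head neighbour Col4a6 stayed at 20 or less in every library. Col4a3 and Col4a4, the other such pair, were low, with Col4a4 at 71, 81 and 9 in WT against 39, 18 and 27 in KO. Their log2 differences of -0.93 (SE 0.44) and -0.49 (SE 0.79) did not pass.

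None of the 23 tested members among the other collagens passed. Col18a1, whose product collagen XVIII yields the fragment endostatin, was the most abundant collagen mRNA per exonic kilobase in every library, with 35247, 34082 and 22298 in WT against 25772, 19598 and 26651 in KO. The groups overlapped, and KO minus WT on the log2 scale was -0.33 (SE 0.26). Col14a1, a collagen that binds to fibril surfaces, was at 943, 867 and 627 in WT against 1528, 1435 and 1338 in KO, all KO libraries above all WT libraries (log2 0.84, SE 0.20, limma adjusted p = 0.0706). It was called without WT replicate 3 (log2 0.66, limma adjusted p = 0.0423).

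Collagen VI, a beaded filament around cells, is built from the chains of Col6a1, Col6a2 and Col6a3. Col6a1 had 360, 156 and 139 in WT against 459, 411 and 287 in KO, with overlap (log2 0.93, SE 0.38). Col6a2 gave a log2 difference of 1.01 (SE 0.39). Col6a3 had 188, 157 and 142 in WT against 432, 353 and 244 in KO, without overlap (log2 1.05, SE 0.26, limma adjusted p = 0.0754). The 3 chains thus differed by like amounts, and none passed. Col20a1, a fibril-associated collagen, came nearest to a rise: it had 150, 142 and 107 in WT against 233, 288 and 302 in KO (log2 1.05, SE 0.23, limma adjusted p = 0.0573). It was called in 3 of 13 alternatives.

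None of the 4 transmembrane collagens was called. Col13a1 was at 359, 265 and 140 in WT against 269, 128 and 161 in KO (log2 -0.42, SE 0.40), with overlap. Col25a1, known from neurons, was at 34, 41 and 53 in WT against 25, 19 and 9 in KO, without overlap at these low values (log2 -1.31, SE 0.47, limma adjusted p = 0.175). Col17a1 and Col23a1 had log2 differences of -0.24 and -0.02. Col15a1, a relative of Col18a1 in vessel and nerve basement membranes, was at 253, 179 and 93 in WT against 98, 121 and 45 in KO, with overlap (log2 -0.98, SE 0.47, limma adjusted p = 0.297).

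In all, 23 tested members had a log2 difference above 0 and 15 below. All KO libraries lay above all WT libraries for 6 of the 38 tested members (15.8%), as they did for 13.2% of all tested genes, and below them for 5 (13.2%), as for 12.8% of all. Neither share stands far from its background. The median log2 difference over the tested members was 0.30, beside 0.0023 for all tested genes. That sign rested on 1 library: without WT replicate 3 the median was -0.32 and 16 of 38 members were above 0. WT replicate 3 was the lowest WT library for 39 of the 44 members and at 0 for 8 of them, where no other library had a member at 0. Among the 21 members with a mean scaled value of at least 50, 15 were above 0 with all libraries, and 15 without WT replicate 3. At the 23 members under that level, values ran from 0 to 81. Without WT replicate 3, 2 members were called higher (Col14a1 and Col20a1) and 3 lower (Col27a1, Col5a3 and Col11a2), where 4.74% and 5.17% of all tested genes were.

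**Figure D2:**
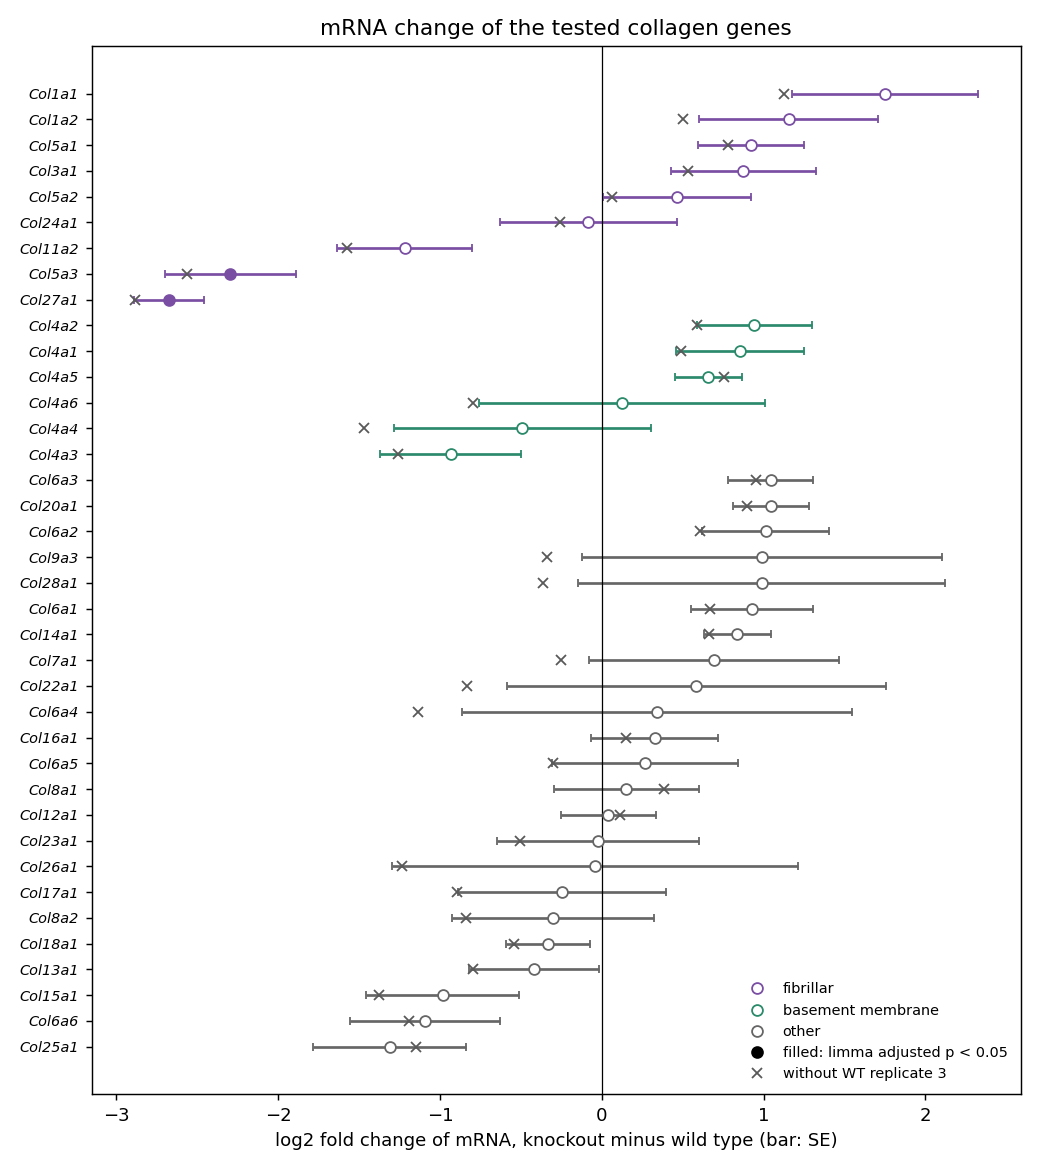
Log2 fold change of mRNA (knockout minus wild type, bars: standard error of the limma fit) of the 38 tested collagen genes, by class, with filled circles for genes called and crosses for the value without WT replicate 3. Only Col5a3 and Col27a1 are filled, and several low genes such as Col9a3 and Col22a1 change side when WT replicate 3 is left out.

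Levels between genes were compared as scaled value per kilobase of annotated exon. Col18a1 made up 70.2% to 75.1% of the summed collagen level per kilobase in WT libraries and 63.9% to 74.4% in KO libraries. In WT, Col5a3 came next with 6.69% ± 0.606, followed by Col27a1 with 4.70% ± 0.404 (SD, n = 3). In KO these shares were 1.78% ± 0.924 and 0.858% ± 0.138. Col4a2 took 2.63% ± 0.525 in WT and 5.90% ± 1.37 in KO, Col4a1 2.46% ± 0.702 and 5.18% ± 1.46, and Col14a1 1.96% ± 0.133 and 4.09% ± 0.559. By these means Col5a3 and Col27a1 led the members other than Col18a1 in WT libraries, and Col4a2 and Col4a1 did so in KO libraries. The sum over all 44 genes overlapped between groups, at 4226 to 7155 per kilobase in WT and 4324 to 5745 in KO. In sums of scaled values not divided by length, fibrillar collagens totalled 10464, 8997 and 5509 in WT against 6052, 4090 and 3458 in KO, and basement membrane collagens 3699, 2507 and 1599 against 5932, 4066 and 3357. Both sums overlapped between groups. Col27a1 and Col5a3 were the largest fibrillar values in every WT library, so the fibrillar sum does not show the class as a whole. Of the 9 tested fibrillar members, 5 had a log2 difference above 0 and 4 below.

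**Figure D3:**
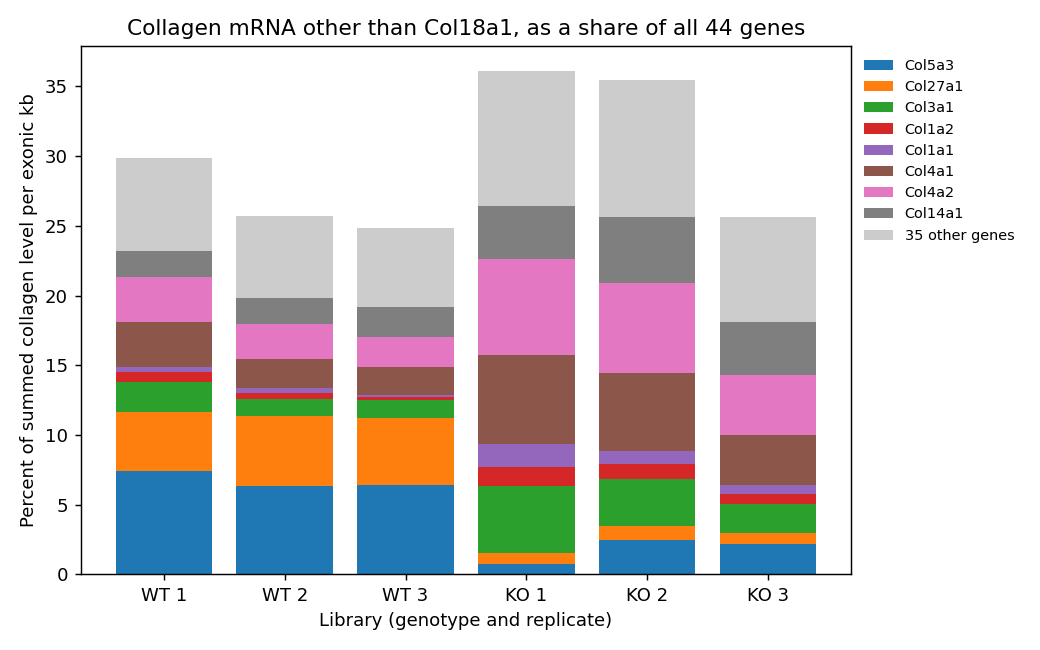
Share (percent) of the summed collagen mRNA level per exonic kilobase taken by 8 collagen genes and by the 35 others, in each of the 6 libraries, with Col18a1 left out of the stack but kept in the total. Col5a3 and Col27a1 fill the largest blocks in the wild-type bars and are small in the knockout bars (0.734% to 2.47% and 0.765% to 1.02%), where Col4a1 and Col4a2 are larger.

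Newly made RNA was read for the same genes. The log2 ratio of KO to WT was taken from each library's share of counted reads and centred on the median gene, for genes with at least 20 reads over both libraries. With 1 library per genotype there was no test, and the 95% intervals are exact binomial (Clopper-Pearson) and address counting error only. PCR copies are not independent molecules, so the intervals may be too narrow even for that. In EU, 29 members had enough reads. Of these, 15 were at least 2-fold higher in KO (51.7%), where 24.9% of all 15131 genes were, and 7 were at least 2-fold lower (24.1%), where 23.2% were. In Br, 7 of 33 members were at least 2-fold higher (21.2%), beside 7.49% of all genes, and 4 were at least 2-fold lower (12.1%), beside 7.01%. The median over members was 1.41 in EU and 0.39 in Br. The 7 include Col6a6 (24 and 0 EU reads), Col9a3 (19 and 1), Col4a4 (36 and 2) and Col25a1 (34 and 7). These met the read filter mostly through WT, and Col4a4 and Col9a3 are also among the 4 in Br. The 15 include Col6a3, Col8a1, Col17a1 and Col23a1, which met the filter mostly through KO. Such genes are counted in the shares, but their EU ratios are not read as falls or rises.

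The interstitial fibrillar chains were higher in KO by both methods. For Col3a1, EU reads numbered 529 for WT and 3396 for KO, which gave a log2 ratio of 3.66 (interval 3.53 to 3.79), and Br reads 91 and 192, which gave 1.53 (1.16 to 1.90). Col1a2 had 159 and 1034 EU reads (3.68, interval 3.44 to 3.93) and 38 and 56 Br reads (1.01, interval 0.39 to 1.64). Col1a1 had 185 and 814 EU reads (3.11, interval 2.88 to 3.35) and 26 and 63 Br reads (1.73, interval 1.05 to 2.44). Each of these genes was higher in EU than in Br or mRNA, where the differences of Col3a1 and Col1a2 were 0.88 and 1.15 on the log2 scale. Col5a1 was also higher in both, at 2.53 in EU (2.16 to 2.92) and 0.80 in Br (0.36 to 1.25). Col5a2, which lies beside Col3a1 on chromosome 1 in the opposite orientation, had 108 and 504 EU reads (3.20, interval 2.90 to 3.51), while its 52 and 41 Br reads gave 0.11 (-0.52 to 0.72).

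Col27a1 was lower in KO by both methods, as it was in mRNA. EU reads numbered 1840 for WT and 358 for KO, which gave -1.39 on the log2 scale (interval -1.55 to -1.22), and Br reads 403 and 147, which gave -1.01 (-1.29 to -0.73). Both are smaller in size than its mRNA change of -2.67. Col5a3, the other gene whose mRNA fell, was not lower in newly made RNA. Its 126 and 87 EU reads gave 0.44 (0.03 to 0.85) and its 214 and 224 Br reads 0.52 (0.24 to 0.79), against -2.30 in mRNA. Whether these readouts differ in Col5a3 beyond the spread between animals was not tested, with 1 nascent library per genotype.

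Of the basement membrane chains, Col4a1 had ratios of 0.40 in EU (0.21 to 0.59) and 0.33 in Br (0.03 to 0.62). Col4a2 had 0.35 in EU (0.10 to 0.59) and -0.20 in Br (-0.54 to 0.14). These ratios were below those of the interstitial fibrillar chains in EU, though in mRNA the differences of Col4a1 and Col4a2 were like that of Col3a1. Col4a4 had few reads, with 36 and 2 in EU and 27 and 6 in Br. It met the read filter mostly through WT and is not read as a fall here. Its neighbour Col4a3 was not lower, with 42 and 41 EU reads and 20 and 20 Br reads.

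The multiplexins Col15a1 and Col18a1 were lower in KO by both methods. Col15a1 had 335 and 30 EU reads (-2.50, interval -3.10 to -1.96) and 62 and 12 Br reads (-1.92, interval -2.95 to -1.01). Its annotated exons overlap those of an opposite-strand gene, Gm12426, and whether counting used strand is not given in the sources used here. Col18a1 had 9951 and 2261 EU reads (-1.16, interval -1.23 to -1.10) and 2951 and 1863 Br reads (-0.21, interval -0.30 to -0.13), so the methods shared the direction but not the size.

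Collagen VI and the fibril-associated genes were mostly higher in EU. Col6a3 had 16 and 171 EU reads (4.39, interval 3.65 to 5.23) and 62 and 68 Br reads (0.58, interval 0.06 to 1.10). In EU it met the read filter mostly through KO, so its EU ratio is not read as a rise here. Col6a1 was higher in both, at 1.94 in EU and 1.03 in Br, and Col6a2 in EU only, at 3.15, against 0.06 in Br with an interval that held 0. Col20a1 had 88 and 228 EU reads (2.35, interval 1.99 to 2.72) and 74 and 136 Br reads (1.33, interval 0.91 to 1.76), next to its mRNA difference of 1.05. Col14a1 was at 1.41 in EU (1.05 to 1.77) and 0.39 in Br, with an interval that held 0.

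Some EU ratios had no counterpart in mRNA. Col12a1 EU reads went from 392 to 2646 between the WT and KO libraries (3.73, interval 3.58 to 3.89), but it had 16 and 16 Br reads and a level mRNA, at 49, 55 and 61 in WT against 51, 53 and 66 in KO. Col11a2 had 21 and 88 EU reads (3.04, interval 2.34 to 3.80) where its mRNA was lower in KO and its Br ratio was -0.17. Col17a1 (15 and 101 EU reads) and Col8a1 (5 and 83) had mRNA differences of -0.24 and 0.15. Both met the EU read filter mostly through KO and are not read as rises here. Col10a1, known from growth plate cartilage, lies inside Nt5dc1 on the opposite strand, so that its 205 and 195 EU reads cannot be assigned to it without strand, and its mRNA stayed at 16 or less.

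Of the 26 members with at least 20 reads in both methods, 10 had intervals above 0 in both (Col1a1, Col1a2, Col3a1, Col4a1, Col5a1, Col5a3, Col6a1, Col6a3, Col10a1 and Col20a1) and 5 had intervals below 0 in both (Col4a4, Col9a3, Col15a1, Col18a1 and Col27a1). Col10a1 is counted here and in the shares below, though its reads cannot be assigned to it without strand. Col4a4 is counted too, though it met the read filter mostly through WT. So is Col6a3, though in EU it met the filter mostly through KO. Col9a3 met the read filter almost only through WT (19 and 1 EU reads, 19 and 2 Br reads), and is not read as a fall here. Its annotated exons also overlap those of an opposite-strand gene, Tcfl5. A further 10 were above 0 in EU with a Br interval that held 0, and in Col7a1 both intervals held 0. No member had intervals on opposite sides. The share of all genes with an interval above 0 was 39.5% in EU and 19.9% in Br, beside 72.4% and 33.3% of members, and the share below 0 was 39.5% and 20.0%, beside 24.1% and 15.2%.

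**Figure D4:**
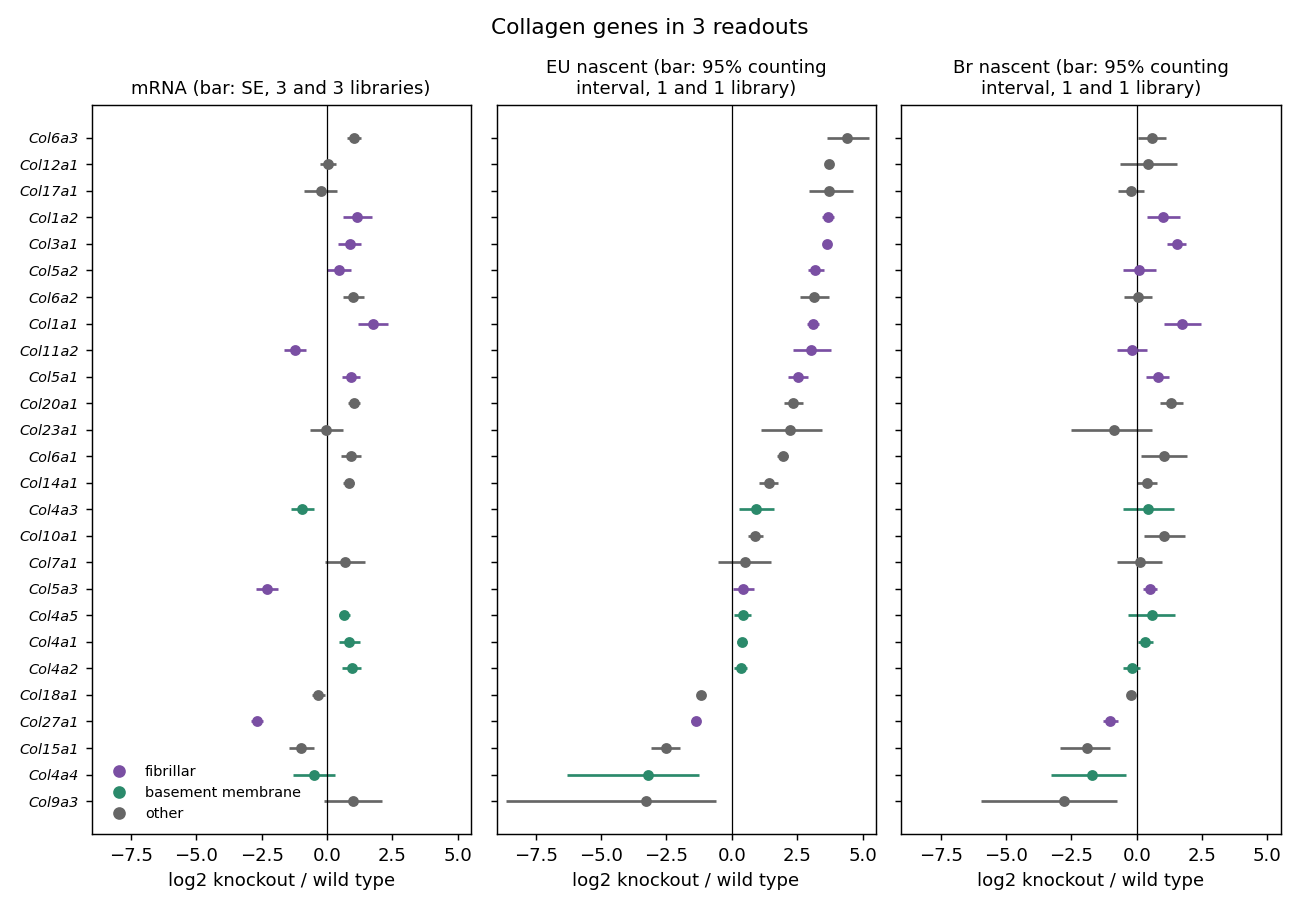
Log2 knockout to wild-type difference of the 26 collagen genes with at least 20 reads in both nascent methods, ordered by EU: mRNA (bars: standard error, 3 libraries per genotype), EU and Br nascent RNA (bars: 95% counting interval, 1 library per genotype). Col1a1, Col1a2 and Col3a1 lie right of 0 in all 3 panels and Col27a1 left of 0, while Col5a3 is left of 0 in mRNA only. Col10a1 was not tested in mRNA and has no point there.

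Collagen chains need a set of enzymes and partners, and these were read from lists of 100 measured genes. Among 15 genes of prolyl and lysyl hydroxylation, which stabilise the helix, P4ha2, a prolyl 4-hydroxylase subunit, rose from 97.0 ± 8.66 to 228 ± 40.5 (SD, n = 3 each; log2 1.22, SE 0.24, limma adjusted p = 0.0393) and 14 did not pass. Among 9 measured genes of folding and secretion, Serpinh1, the collagen chaperone HSP47, rose from 188 ± 23.6 to 431 ± 83.7 (log2 1.18, SE 0.22, limma adjusted p = 0.0359) and 8 did not pass. Its nascent RNA was at 4.91 in EU and -0.48 in Br. None of the 6 tested genes of propeptide removal was called, and Bmp1, the procollagen C-proteinase, was at 3525 ± 182 in WT and 2878 ± 260 in KO. Pcolce, which enhances that cleavage, had a log2 difference of 0.95 (SE 0.39). None of the 7 genes of crosslinking was called, and Tgm2, a transglutaminase, was at 1445 ± 85.0 and 2711 ± 802 (log2 0.86, SE 0.25, limma adjusted p = 0.113), while Loxl2, a lysyl oxidase, differed by 0.06 (SE 0.33). The medians of these 4 lists were 0.25, 0.28, 0.78 and 0.06.

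Among 10 tested genes of collagen breakdown and its inhibitors, Mmp15, a membrane-bound metalloproteinase, fell from 2449 ± 163 to 1214 ± 157 (log2 -1.02, SE 0.18, limma adjusted p = 0.0309) and 9 did not pass, with a median of 0.11. None of 8 collagen receptors was called (median 0.60), and Itgb1, the common integrin chain, had a log2 difference of 0.0023 and Itga1, the alpha chain of a collagen-binding integrin, of 0.63 (SE 0.26). None of 18 genes of transforming growth factor beta signalling was called (median 0.32), with Tgfbr2, a receptor, at -0.32 (SE 0.31) and Ltbp4, a latent-factor binding protein, at 0.86 (SE 0.33). Of 16 basement membrane partners, 4 rose, 1 fell and 11 did not pass, where 1.35% and 1.36% of all tested genes were called higher and lower. In this list 15 genes were above 0 and the median was 0.66. Nid2 and Nid1, the nidogens that link laminin to collagen IV, rose with log2 fold changes of 1.55 (SE 0.25) and 1.02 (SE 0.19), Sparc, a collagen-binding protein, with 1.14 (SE 0.19), and Lamb1, a laminin chain, with 1.05 (SE 0.20). Lama3, another laminin chain, fell with -1.67 (SE 0.35, limma adjusted p = 0.0487). Over these 8 lists 6 of 89 tested genes rose and 2 fell, beside the same 1.35% and 1.36% of all tested genes. No rise and no fall was called when WT replicate 1, WT replicate 2, KO replicate 1 or KO replicate 2 was left out. Without WT replicate 3 there were 11 rises and 4 falls, where 4.74% and 5.17% of all tested genes were called, and without KO replicate 3 there were 2 rises and 0 falls.

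Markers of the cell types that liver holds were read in the same libraries. Of 14 stellate cell markers Pdgfrb, a growth factor receptor of stellate cells, rose (log2 1.36, SE 0.21, limma adjusted p = 0.0209) and 13 did not pass. The list had a median of 0.44, with 10 markers above 0 and 4 below. Its summed scaled values were 7545 to 8733 in WT and 9585 to 11113 in KO. Ecm1 made up a large part of these sums, with 2708, 2675 and 2764 in WT against 4828, 3564 and 5020 in KO. Rgs5 went the other way without passing, at 1003, 845 and 1301 in WT against 485, 585 and 609 in KO (log2 -0.89, SE 0.21, limma adjusted p = 0.0681). The groups did not overlap for 7 markers higher in KO and for Rgs5 alone among those lower, beside 13.2% and 12.8% of all tested genes. Of 15 tested myofibroblast and portal fibroblast markers Postn rose (log2 1.34), Dpt fell (log2 -5.23) and 13 did not pass, with a median of 0.49 and sums of 1728 to 3458 and 3331 to 4312. Sums of 12 endothelial markers overlapped, at 8422 to 10237 and 9078 to 9718, and none was called (Eng 0.06, Clec4g -0.08). In this list 9 markers were above 0 and 3 below, with a median of 0.08. All KO libraries lay above all WT libraries for 4 of them (Pecam1, Cdh5, Lyve1 and Vwf), beside 13.2% of all tested genes. Cdh5 was at 1.00 (SE 0.24, limma adjusted p = 0.0697), and was called without WT replicate 3 (log2 1.23, limma adjusted p = 0.0109). Sums of 12 macrophage markers, of which Csf1r rose (log2 1.65) and 11 did not pass, were 4866 to 6918 and 7604 to 16941. The median log2 difference of the macrophage list was 1.28, with 11 markers above 0 and 1 below. All KO libraries lay above all WT libraries for 6 of them, beside 13.2% of all tested genes. Clec4f and Cd5l made up much of the macrophage sums, with means of 2889 and 1699 in WT against 4921 and 3897 in KO. Sums of 9 bile duct markers, of which Spp1 rose (log2 1.85) and 8 did not pass, were 858 to 1340 and 1517 to 2445. Spp1 made up a large part of the bile duct sums, with 263, 301 and 470 in WT against 1569, 1387 and 803 in KO. The median log2 difference of this list was 0.17, with 7 markers above 0 and 2 below. No lymphocyte, neutrophil or mesothelial marker was called, with sums of at most 377 in any library. No marker in these lists was at 0 in all 6 libraries. Over all marker lists 4 of 89 tested genes rose and 1 fell, beside 1.35% and 1.36% of all tested genes, with 0 to 11 rises and 1 to 2 falls when a library was left out.

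In EU, the stellate list took 0.00750% of reads in WT and 0.0156% in KO, and the myofibroblast list 0.00829% and 0.0517%. Over the same libraries hepatocyte markers took 5.30% and 3.37%. In Br the stellate list took 0.0375% and 0.0544%, the myofibroblast list 0.0119% and 0.0160%, and the hepatocyte list 1.76% and 1.26%. The part of these marker levels in the collagen values was not tested.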

How the data were processed

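Livers of mice labelled wild type or Setd8lox/lox-Alb-Cre were profiled as mRNA (3 libraries each) and as newly made RNA by EU and Br (1 library each). The submitters' processing notes name TopHat2, Bowtie2, Cufflinks, DESeq, MACS2, SICER and the build mm9. Counter, strand setting and annotation are not given in the sources used here. Deposited mRNA values are a score: the authors' table is titled as DESeq-normalized reads, and its values are whole numbers. For EU and Br, counts per gene were deposited. All Br counts are even and were divided by 2. The authors also deposited an RPKM table of the 4 nascent libraries, used as an alternative.

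Symbols came from GENCODE vM21, in which 32860 of 37583 gene IDs matched. Exonic length was the union of annotated exons. Since the mRNA files held no raw counts, limma-trend (limma 3.58.1, R 4.3.3, eBayes with trend and robust) was fitted to log2 of the value plus 1 over all genes with at least 10 in at least 3 libraries, two-sided, called at an adjusted p under 0.05. Fold changes are on that scale, which understates low genes. Read numbers re-estimated from the rounding step gave 15640582 to 27111332 per library, approximate where 1 read is worth under 1 unit, and fed edgeR 4.0.16 as an alternative. Scripts were tested on simulated data.

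The members and lists were chosen with earlier results of these data known. Values in every library are given for called members, the 4 highest per class per exonic kilobase and the 3 largest log2 differences in each direction. Col5a1, Col5a2, Col6a2, Col11a2, Col12a1, Col15a1, Col20a1 and others outside this rule were named after their values were seen. Of each list, up to 4 called genes per direction were named, or with none called up to 2 of the most abundant. Pecam1, Cdh5, Lyve1, Vwf, Ecm1, Rgs5, Clec4f and Cd5l were named outside this rule, after their values were seen. Alternatives were other pseudocounts, filters and scaling, edgeR, a replicate block and each library left out, and for nascent RNA RPKM plus 0.5, no centring and at least 50 reads. The median gene lay at -0.02 in EU and -0.0038 in Br before centring, and the median number of reads per kept gene, summed over the 2 genotypes, was 261 in EU and 142 in Br. Mia3 and Muc16 had no row.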

Additional observations from a re-analysis of the deposited data

How the results depend on the processing

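Col27a1 was called lower under each of the 13 mRNA alternatives, with log2 fold changes of -2.88 to -2.54. The number of collagen genes called lower was 2 and ran from 1 to 3 with a library left out. The number called higher was 0, with 9 at an unadjusted limma p under 0.05 and 0 by edgeR, and ran from 0 to 2 with a library left out. It was 1 (Col20a1) with a mean scaled value of at least 50 or with TMM rescaling. The median log2 difference of the tested members was 0.30, was 0.84 with a mean of at least 50, where fewer genes were tested, and ran from -0.32 to 0.57 with a library left out. With the replicate number as a block, 6 members were called higher (Col1a1, Col3a1, Col4a1, Col4a2, Col6a3 and Col14a1), and over all genes 500 were called higher and 514 lower. The numbers name the libraries only: deviations of same-numbered libraries correlated at 0.41, -0.24 and 0.20, and not every library correlated best with its own number. Over all genes, 13 to 797 were called higher and 15 to 869 lower with a library left out.

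In EU, 7 members were 2-fold lower, and 3 with at least 50 reads, where the median ratio was 2.34 in place of 1.41. In Br, 4 were 2-fold lower, and 2 with at least 50 reads. With RPKM plus 0.5 the EU ratio of Col8a1 was 2.79 in place of 5.03. The median mRNA difference and several members with low values, such as Col9a3 and Col22a1, changed sign without WT replicate 3; none of these was called. Nascent values rest on 1 library per genotype, and 15 members in EU and 11 in Br had under 20 reads.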
